A study of Mus musculus with 20 samples.

Results

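The transcriptional response of mouse prefrontal cortex to lipopolysaccharide (LPS) was examined in 8 of the 20 samples of the series, chosen as all columns of the prefrontal cortex count table. They were grouped by the treatment written in the column name, which gave 4 LPS libraries (2L, 4L, 5L and 7L) and 4 saline libraries (1L, 3L, 6L and 8L). The animals were wild-type C57/BL6 males of 2 to 6 months, and the labels name no other allele or agent. One group had received 5 mg/kg LPS intraperitoneally and the other 0.9% saline, and prefrontal cortex was dissected 24 hours after the injection. For 4 of the 8 records (2L, 4L, 6L and 8L) the sample title and its treatment entry contradict the column, so every direction below rests on the column names. Grouped by title, 0 genes passed the threshold with edgeR, and 201 had an unadjusted p under 0.05. The titles call the libraries biological replicates, and each column name carries its own number. The p-values measure the spread between libraries, which may be partly technical. In dissected tissue fewer cells of a type and less RNA per cell cannot be told apart.

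LPS is a component of the outer membrane of Gram-negative bacteria and is sensed by Toll-like receptor 4. Injected into the abdomen it reaches the brain mostly indirectly, through blood vessels, border cells, cytokines, the vagus nerve and stress hormones, and after the first cytokine burst the response reaches transcription factors, metabolism and neurons. The account runs from transcription factors through signalling pathways and receptors to metabolism, RNA and protein handling, and neurons.

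The libraries held 36371084 to 46106526 counted reads. Of 17760 genes tested, 3811 were higher with LPS (21.5%) and 3502 lower (19.7%) at an edgeR adjusted p under 0.05, 41.2% in all, and for 6588 (37.1%) the lowest library of 1 group lay above the highest of the other. The median log2 change over all genes tested was 0.0092. These shares are the background for every list count below. Levels are counts scaled to library size (CPM) scaled with TMM factors, given in the order 1L, 3L, 6L and 8L for saline and 2L, 4L, 5L and 7L for LPS, and means are ± SD with n = 4 in each group. Log2 changes are LPS over saline with their standard errors (SE).

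Markers of neurons, astrocytes, oligodendrocytes and microglia were present in every library, and among the 10 neuronal markers only Tubb3 had 0 counts. The summed level of the neuronal markers was 10308 to 11972 CPM with saline and 11919 to 13074 CPM with LPS. Microglial markers summed to 456 to 485 CPM with saline and 328 to 423 CPM with LPS, and oligodendrocyte markers to 2931 to 3935 CPM and 2615 to 3550 CPM. The 10 neutrophil markers summed to 2.92 to 5.54 CPM with saline and 7.94 to 12.5 CPM with LPS. Markers of neighbouring regions differed between libraries. The 15 markers of striatal projection neurons summed to 707 to 2264 CPM with saline and 750 to 2662 CPM with LPS, and 0 of 15 passed the threshold with edgeR. A list of 12 transcripts typical of olfactory bulb neurons, written after their values were seen, summed to 845, 624, 960 and 817 CPM with saline and to 150.5, 383, 360 and 645 CPM with LPS. That sum was lowest in LPS library 2L, and LPS library 7L lay within the saline range. Its part in the results was not tested beyond a fit with the mean olfactory level as a covariate, which kept 5027 of the 7313 calls. That fit is cited where it ends a call. LPS library 2L also lay nearest to saline for a number of induced genes, and without it 4327 genes were higher and 4154 lower.

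**Figure D1:**
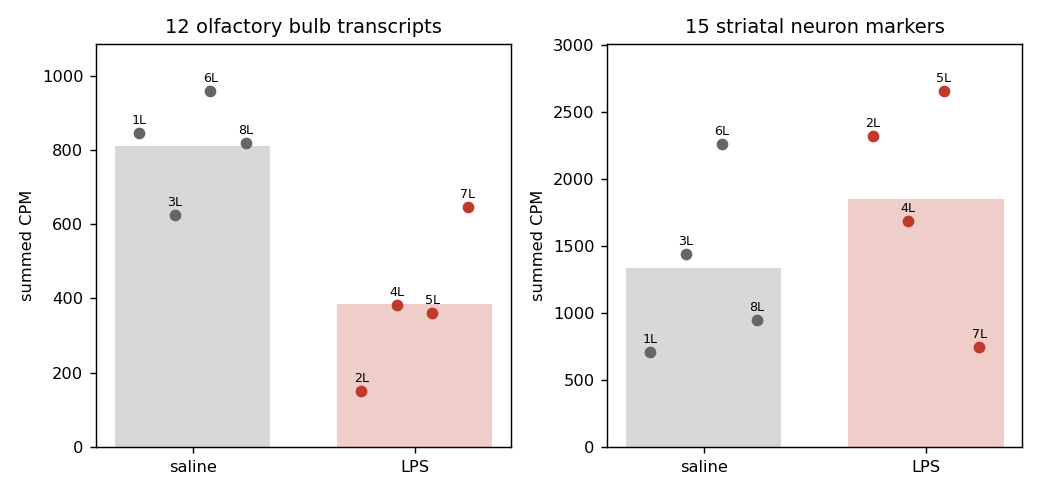
Summed level (CPM, linear axis from 0) of 12 olfactory bulb transcripts, left, and of 15 striatal projection neuron markers, right, with 1 point for each of the 8 libraries and a bar at the group mean. The olfactory sums are 624 to 960 CPM with saline and 150.5 to 645 CPM with LPS, while the striatal sums overlap.

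Among transcription factors, the C/EBP basic leucine zipper proteins drive acute-phase and metabolic genes, and the related PAR factors bind the D-box of clock-regulated genes. In the list 5 of 9 tested were higher and 0 lower (median log2 change 0.50), and 1 was lower without 2L, with the olfactory covariate and in the 4 libraries whose labels agree. Cebpd, the most inducible member, stood at 4.59, 4.47, 5.35 and 9.91 CPM with saline and 20.7, 35.96, 37.9 and 36.9 CPM with LPS (log2 change 2.43, SE 0.27, edgeR adjusted p = 5.7e-05). Every LPS library was above every saline library, and 2L was the lowest of the LPS group. Cebpb rose from 8.75 ± 1.64 to 25.98 ± 5.63 CPM and Cebpa, known from liver, fat and myeloid cells, from 9.52 ± 0.523 to 24.3 ± 2.13 CPM. Tef, a PAR factor with a high baseline, rose from 285 ± 19.3 to 450.4 ± 34.2 CPM.

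The small Maf proteins, which lack an activation domain and pair with CNC factors such as NRF2 and BACH, did not all change in the same direction. Maff measured 1.44, 0.539, 2.11 and 1.90 CPM with saline and 7.49, 11.1, 11.02 and 9.29 CPM with LPS (log2 change 2.68, SE 0.31, edgeR adjusted p = 8.2e-05), so the groups were separated by a wide gap. Mafk rose from 8.12 ± 2.39 to 26.5 ± 5.68 CPM (log2 change 1.70). The third small Maf gene, Mafg, moved the other way and fell from 78.9 ± 5.78 to 57.5 ± 4.84 CPM. Bach2, a repressor that competes for the same partners, fell from 11.4 ± 1.24 to 6.47 ± 0.858 CPM. Nfe2l2, which encodes NRF2, stood at 17.9 ± 2.57 CPM with saline and 18.9 ± 1.61 CPM with LPS and did not pass the threshold (edgeR adjusted p = 0.63). In the same list Atf5, a stress-regulated factor, fell from 48.2 ± 6.09 to 27.3 ± 3.24 CPM. Over the list 8 of 26 tested were higher and 7 lower (median log2 change 0.02).

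Krüppel-like factors bind GC-rich promoters. Klf9, which responds to glucocorticoid and thyroid hormone in neurons, stood at 225, 219, 248 and 253 CPM with saline and 419.8, 469, 534 and 463 CPM with LPS (log2 change 1.00, SE 0.08, edgeR adjusted p = 9.1e-06). The groups were far apart relative to their spread. Klf15, a factor of fasting metabolism, rose from 24.6 ± 5.65 to 47.7 ± 3.38 CPM, and Klf2, a flow-responsive factor of endothelium, from 10.3 ± 4.47 to 22.3 ± 2.27 CPM. In the KLF and SP list 9 of 22 tested were higher and 3 lower (median log2 change 0.26). The higher count was 5 without 1L, 8L or 5L and 4 without 4L, and the 3 lower genes did not pass with the olfactory covariate.

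IRF and STAT factors carry interferon and cytokine signals to the nucleus. Irf1 measured 6.05, 5.82, 4.69 and 5.89 CPM with saline and 18.2, 25.9, 29.9 and 27.9 CPM with LPS (log2 change 2.18, SE 0.16, edgeR adjusted p = 3.2e-06). Stat3, the main effector of interleukin-6, measured 64.05, 57.7, 71.1 and 72.3 CPM with saline and 94.8, 160.2, 172 and 169 CPM with LPS (log2 change 1.17, SE 0.16, edgeR adjusted p = 2.5e-04). In both, 2L was the lowest LPS library and still lay above all saline libraries. Irf3, which carries the early signal from Toll-like receptors to interferon beta, was lower, at 15.1, 13.8, 17.1 and 13.7 CPM with saline and 12.3, 6.05, 5.02 and 5.58 CPM with LPS (log2 change -1.04, SE 0.24, edgeR adjusted p = 0.0056). Of the IRF and STAT list 8 of 13 tested were higher and 2 lower (median log2 change 0.71).

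Several factors of glia and vessels fell. Hes5, a Notch target that marks astrocyte precursors and mature astrocytes, stood at 20.3, 15.3, 10.9 and 14.4 CPM with saline and 3.93, 4.81, 3.18 and 4.38 CPM with LPS (log2 change -1.90, SE 0.19, edgeR adjusted p = 3.8e-05), with no LPS library above 4.81 CPM. Heyl fell from 12.6 ± 1.74 to 6.61 ± 1.01 CPM and Olig1, a factor of the oligodendrocyte lineage, from 104 ± 6.67 to 51.5 ± 14.2 CPM. Sox17, which maintains arterial endothelium, fell from 3.76 ± 0.534 to 1.97 ± 0.399 CPM. In the basic helix-loop-helix list 7 of 35 tested were higher and 12 lower (median log2 change 0.03), and Myc, a growth factor-induced regulator of biosynthesis, rose from 3.64 ± 0.633 to 9.78 ± 0.880 CPM. Neurod2, a factor of cortical excitatory neurons, also rose, at 86.6, 64.5, 57.02 and 88.8 CPM with saline and 137, 142, 132 and 161 CPM with LPS (log2 change 0.94, SE 0.13, edgeR adjusted p = 2.9e-04). Cux2, of upper layers, was at 122 ± 15.7 CPM with saline and 128 ± 8.87 CPM with LPS and Bcl11b, of deep layers, at 144 ± 18.1 CPM with saline and 150.2 ± 22.2 CPM with LPS, and neither passed (edgeR adjusted p = 0.57 and 0.7).

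ETS factors changed in both directions. Spi1, the master factor of microglia and myeloid cells, rose from 4.17 ± 0.764 to 10.4 ± 1.51 CPM, and Elf4 from 1.35 ± 0.342 to 3.74 ± 0.713 CPM. Etv5, a target of FGF signalling, fell from 126 ± 11.6 to 85.9 ± 8.14 CPM. Etv4 fell from 10.1 ± 0.759 to 5.43 ± 1.18 CPM, a call that did not hold with the olfactory covariate (edgeR adjusted p = 0.057). Of the ETS list 9 of 19 tested were higher and 4 lower (median log2 change 0.28), and the lower count was 2 with that covariate. Beyond the lists, Irx3, a homeobox factor with little baseline expression in cortex, rose from 0.282 ± 0.121 to 3.06 ± 0.338 CPM, and Spdef, an ETS factor of secretory epithelium, from 0.149 ± 0.0368 to 4.73 ± 2.94 CPM. The LPS libraries spread widely for Spdef, at 1.18 CPM in 2L and 8.32 CPM in 7L, yet all were above 0.190 CPM, the highest saline library.

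**Figure D2:**
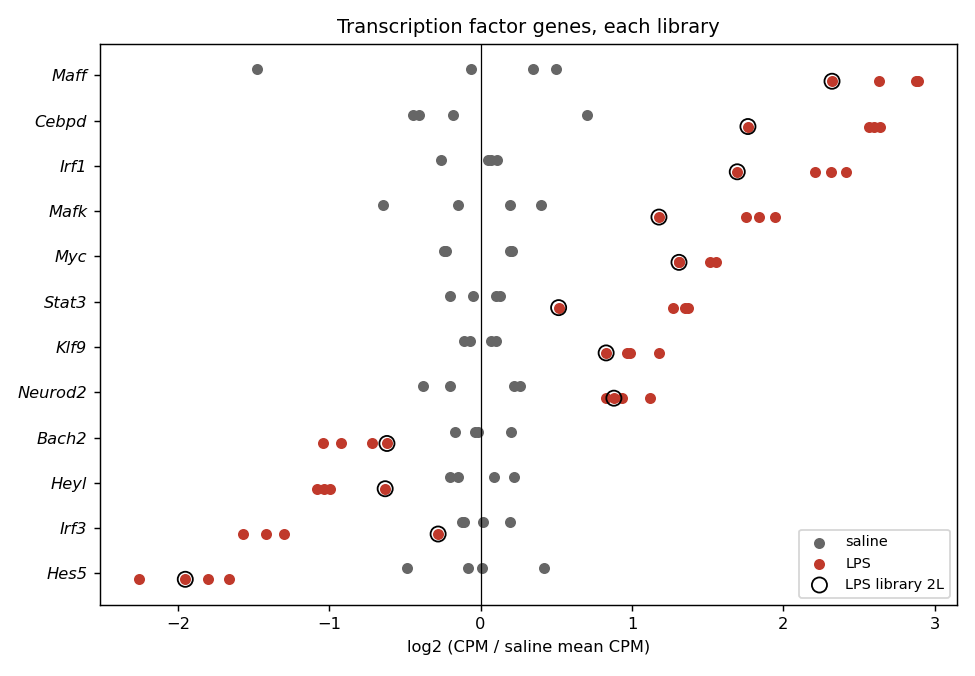
Level of 12 transcription factor genes in each library, drawn as log2 of its CPM over the saline mean (log2 axis), with saline libraries in grey, LPS libraries in red and a ring around LPS library 2L. Maff and Cebpd lie highest with LPS, Hes5 lowest, and library 2L lies nearest to saline among the LPS points for Stat3 and Irf3.

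Promoter sequences were read for 4 genes whose level changed and that hold a searched motif upstream of their start: an interferon target, a STAT-responsive factor, a hormone-responsive metabolic gene and a neuropeptide receptor. They are RefSeq sequences of build GRCm38.p6 (mm10), written 5′ to 3′ on the gene's strand and ending 1 base before the start, with the motif in capitals. The motifs were GAAANNGAA for the interferon-stimulated element, TTCNNNGAA for STAT, ACANNNTGT for the glucocorticoid receptor and TGACGTCA for the cAMP element, each searched on both strands. Neighbouring matches may overlap, as the 3 in Isg15 do.
Isg15, chr4:156200819-156200908, minus strand: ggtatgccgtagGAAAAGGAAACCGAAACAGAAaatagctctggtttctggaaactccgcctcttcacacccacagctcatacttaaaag
Irf1, chr11:53769914-53770013, plus strand: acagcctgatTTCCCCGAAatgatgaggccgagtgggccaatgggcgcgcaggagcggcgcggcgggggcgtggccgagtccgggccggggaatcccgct
Txnip, chr3:96557777-96557956, plus strand: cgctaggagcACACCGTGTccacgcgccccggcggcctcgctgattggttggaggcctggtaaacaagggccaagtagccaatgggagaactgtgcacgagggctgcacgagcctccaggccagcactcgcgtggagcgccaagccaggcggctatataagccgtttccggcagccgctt
Sstr2, chr11:113619247-113619326, plus strand: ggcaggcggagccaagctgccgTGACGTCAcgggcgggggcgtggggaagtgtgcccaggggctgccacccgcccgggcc
The first match begins 78 bases before the start in Isg15, 90 in Irf1, 170 in Txnip and 58 in Sstr2. Of 12719 tested genes with a RefSeq promoter of 300 bases, 7.15% held the interferon element, 6.62% the STAT motif, 4.43% the glucocorticoid motif and 2.81% the cAMP element. A match is a description of the letters and not a bound site. Isg15, a ubiquitin-like protein, stood at 1.33, 1.64, 1.46 and 1.28 CPM with saline and 6.93, 6.83, 7.55 and 7.29 CPM with LPS (log2 change 2.32, SE 0.15, edgeR adjusted p = 1.4e-06). Txnip, which restrains glucose uptake and thioredoxin, measured 16.01, 18.3, 21.2 and 17.2 CPM with saline and 50.6, 60.8, 67.9 and 53.9 CPM with LPS (log2 change 1.68, SE 0.12, edgeR adjusted p = 2.5e-06). The groups were apart in both genes. Sstr2, a somatostatin receptor whose promoter holds the full cAMP element, was lower, at 19.3, 21.7, 19.00 and 13.9 CPM with saline and 9.62, 6.31, 5.35 and 7.22 CPM with LPS (log2 change -1.37, SE 0.19, edgeR adjusted p = 2.2e-04).

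WNT ligands showed opposite extremes. Secreted WNT proteins act through Frizzled and LRP receptors, and in the adult brain they maintain the blood-brain barrier and synapses. Wnt10b measured 1.67, 1.43, 1.80 and 1.54 CPM with saline and 15.7, 33.97, 33.7 and 41.3 CPM with LPS (log2 change 4.27, SE 0.27, edgeR adjusted p = 1.3e-06), a 19.3-fold difference. Library 2L was the lowest of the LPS group, and no saline library exceeded 1.80 CPM. Wnt3 rose from 2.03 ± 0.394 to 6.63 ± 2.04 CPM. Wnt7a, a ligand that supports barrier endothelium, went the other way, with 25.6, 23.9, 30.5 and 18.5 CPM with saline and 7.49, 8.87, 9.60 and 9.70 CPM with LPS (log2 change -1.47, SE 0.15, edgeR adjusted p = 3.9e-05). Wnt6 fell from 4.75 ± 0.970 to 1.27 ± 0.372 CPM. Fzd4, a receptor on brain endothelium, rose from 10.8 ± 1.41 to 23.2 ± 5.94 CPM. Axin2, the usual readout of canonical WNT signalling, stood at 28.4, 26.9, 28.6 and 26.4 CPM with saline and 25.6, 27.4, 26.7 and 26.5 CPM with LPS (edgeR adjusted p = 0.6), so the groups overlapped. In the list 6 of 50 tested were higher and 13 lower (median log2 change -0.15).

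Notch signalling joins neighbouring cells, and its genes went both ways. The endothelial ligand Dll4 rose from 1.58 ± 0.396 to 5.09 ± 1.43 CPM and the receptor gene Notch1 from 35.1 ± 5.12 to 50.6 ± 7.42 CPM. The targets Hes5 and Heyl, given above, fell, as did Numb, a Notch antagonist (from 48.95 ± 4.31 to 28.5 ± 3.36 CPM). The target Hey1, at a higher level, did not pass (edgeR adjusted p = 0.68). It stood at 48.9 ± 1.31 CPM with saline and 47.6 ± 2.07 CPM with LPS. Of 30 members 6 were higher and 7 lower, and the higher count was 3 without 3L, 4L or 5L.

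TGF-beta, activin and BMP ligands act through paired receptors and SMAD proteins. Inhba, the activin A subunit, stood at 18.8, 17.5, 39.5 and 14.4 CPM with saline and 6.57, 6.85, 5.72 and 8.42 CPM with LPS (log2 change -1.71, SE 0.28, edgeR adjusted p = 6.7e-04). Saline library 6L was the highest, and Fos, an immediate early gene, stood at 103 CPM in 6L against 25.1 to 39.3 CPM in the other saline libraries. For Inhba every LPS library lay below every saline library. Bmp6 fell from 18.9 ± 5.06 to 6.90 ± 1.31 CPM, Gdf11 from 33.2 ± 3.92 to 17.4 ± 1.59 CPM and Smad7 from 38.2 ± 6.61 to 18.98 ± 1.17 CPM. Acvr1b, a type I activin receptor, rose from 131 ± 11.7 to 205 ± 5.04 CPM, the co-receptor gene Tgfbr3 from 9.65 ± 0.624 to 19.2 ± 4.30 CPM, and Fstl1, a secreted follistatin-like protein, from 33.2 ± 1.93 to 63.5 ± 10.98 CPM. Over the list 13 of 50 tested were higher and 9 lower (median log2 change -0.01).

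Among FGF and EGF genes, Fgf2, a growth factor of reactive astrocytes, rose from 5.60 ± 0.677 to 14.2 ± 3.72 CPM and the EGF receptor inhibitor Errfi1 from 30.1 ± 4.59 to 67.6 ± 13.9 CPM. Fgf10 fell from 9.23 ± 1.31 to 4.18 ± 0.624 CPM, and Erbb3, the neuregulin receptor of oligodendrocyte lineage cells, from 17.4 ± 2.38 to 9.17 ± 0.868 CPM. In this list 6 of 39 tested were higher and 10 lower (median log2 change -0.13), with 6 lower under the olfactory covariate.

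The list of vascular growth factors had a larger called share than the WNT, Notch, TGF-beta, FGF, guidance and RGS lists, 73.5% of 34 tested against 41.2% of all genes. VEGF and angiopoietin signals set vessel growth and tightness. The ligand gene Vegfa measured 50.2, 48.4, 53.04 and 66.2 CPM with saline and 24.01, 29.4, 30.2 and 29.9 CPM with LPS (log2 change -0.94, SE 0.11, edgeR adjusted p = 1.1e-04). Its main receptor Kdr fell from 11.3 ± 2.89 to 5.19 ± 0.502 CPM. Flt1, another VEGF receptor gene, did not pass (edgeR adjusted p = 0.086). Its level was 59.4 ± 7.40 CPM with saline and 50.3 ± 4.99 CPM with LPS. On the angiopoietin side, the destabilising ligand Angpt2 stood at 1.46, 1.08, 1.52 and 1.43 CPM with saline and 4.92, 6.62, 5.56 and 3.84 CPM with LPS (log2 change 1.93, SE 0.21, edgeR adjusted p = 5.2e-05), while the receptor gene Tek fell from 9.88 ± 1.42 to 3.63 ± 1.75 CPM and Ptprb, the phosphatase acting on that receptor, from 32.1 ± 2.11 to 17.2 ± 3.47 CPM. Apln, the apelin peptide gene, showed no overlap and little spread, with 24.5, 27.7, 27.4 and 23.8 CPM with saline and 8.64, 7.13, 8.64 and 7.27 CPM with LPS (log2 change -1.71, SE 0.11, edgeR adjusted p = 1.3e-06). Angptl4, a lipase inhibitor induced by PPARs and glucocorticoid, rose from 3.97 ± 1.28 to 22.2 ± 5.11 CPM, while Angptl2 fell from 4.21 ± 1.44 to 0.855 ± 0.329 CPM. Altogether 8 of 34 tested were higher and 17 lower (median log2 change -0.40). Of 8 endothelial markers 5 were higher and 1 lower, and their sum was 153 to 189 CPM with saline and 216 to 239 CPM with LPS. The higher count was 3 without 6L.

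Axon guidance genes also act in mature synapses and vessels. Unc5b, a netrin receptor, fell from 25.1 ± 2.36 to 9.93 ± 2.08 CPM, Plxnb3 from 15.3 ± 1.19 to 6.07 ± 1.64 CPM and Plxnc1 from 65.2 ± 2.57 to 31.99 ± 3.19 CPM. Unc5a, of the same receptor family, rose from 112 ± 11.1 to 181 ± 6.53 CPM. Epha4, an ephrin receptor of neurons and astrocytes, rose from 137 ± 17.2 to 234 ± 4.76 CPM. Of 64 members 13 were higher and 19 lower.

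RGS proteins switch off G-protein signals, and Rgs10, a microglial member that restrains inflammatory output, fell from 23.8 ± 2.05 to 14.2 ± 1.75 CPM, while Rgs17 rose from 87.6 ± 3.72 to 126 ± 7.22 CPM. Over the RGS list 1 of 17 tested were higher and 6 lower (median log2 change -0.19), and 2 were higher without 8L, 2L or 7L. Of the adenylyl cyclases and phosphodiesterases, which make and break down cAMP, 4 of 27 tested were higher and 8 lower (median log2 change -0.08), and with the olfactory covariate 2 were higher and 5 lower. Adcy3 fell from 62.7 ± 6.76 to 43.3 ± 4.19 CPM and Pde5a, which breaks down cGMP, from 12.7 ± 1.79 to 6.56 ± 1.58 CPM. The cyclase gene Adcy9 (from 53.8 ± 8.70 to 96.9 ± 3.52 CPM) and the phosphodiesterase gene Pde4b (from 117 ± 4.31 to 209.7 ± 37.5 CPM) rose. Adcy8 fell from 50.8 ± 4.07 to 26.4 ± 8.35 CPM, and that call was lost with the olfactory covariate (edgeR adjusted p = 0.067).

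G-protein-coupled receptors of myeloid cells showed large changes from low levels. Gpr84, a receptor for medium-chain fatty acids on activated microglia, measured 0.693, 1.35, 0.909 and 0.879 CPM with saline and 19.02, 16.5, 9.98 and 10.7 CPM with LPS (log2 change 3.88, SE 0.27, edgeR adjusted p = 2.3e-06). Gpr65, an acid-sensing receptor, rose from 0.151 ± 0.0421 to 2.29 ± 0.196 CPM. Gpr34, the lysophosphatidylserine receptor of resting microglia, stood at 6.98, 10.6, 7.54 and 6.04 CPM with saline and 1.08, 0.821, 0.233 and 0.358 CPM with LPS (log2 change -3.62, SE 0.37, edgeR adjusted p = 3.9e-05), so no LPS library exceeded 1.08 CPM. Of 8 microglial markers 4 were also lower and 1 higher, and their part in these receptor levels was not tested. P2ry13, a purinergic receptor of microglia, fell from 10.7 ± 1.94 to 3.83 ± 1.04 CPM, and P2ry2, a nucleotide receptor for ATP and UTP, rose from 0.598 ± 0.152 to 2.55 ± 1.05 CPM. S1pr1, the sphingosine-1-phosphate receptor of astrocytes and endothelium, fell from 160.5 ± 9.32 to 97.1 ± 9.70 CPM. Of the lipid and chemoattractant receptors 9 of 29 tested were higher and 8 lower (median log2 change -0.10), and the lower count was 4 without 1L or 7L and 5 without 6L or 5L. With the 1 CPM filter 5 were higher.

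Among orphan and adhesion receptors, Gprc5b, an astrocyte-rich orphan receptor, stood at 345, 292, 403 and 321 CPM with saline and 136, 129.8, 142 and 184 CPM with LPS (log2 change -1.20, SE 0.12, edgeR adjusted p = 3.6e-05). Gpr37, a receptor of oligodendrocytes, fell from 52.3 ± 2.93 to 28.6 ± 3.78 CPM and the planar polarity cadherin Celsr1 from 13.01 ± 0.703 to 6.02 ± 1.20 CPM. Of 8 oligodendrocyte markers 3 were lower and 0 higher with edgeR, and their part in Gpr37 was not tested. In this list 14 of 63 tested were higher and 15 lower (median log2 change -0.02), with 9 lower without 5L.

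C-type lectins, Siglecs and related immunoglobulin-like receptors sense glycans and lipids on myeloid cells. Cd300lf measured 0.103, 0.350, 0.190 and 0.119 CPM with saline and 4.70, 7.13, 8.12 and 4.89 CPM with LPS (log2 change 5.02, SE 0.35, edgeR adjusted p = 2.3e-06). Siglec1, a macrophage lectin induced by interferon, measured 0.205, 0.512, 0.275 and 0.261 CPM with saline and 4.01, 3.40, 3.26 and 2.18 CPM with LPS (log2 change 3.36, SE 0.31, edgeR adjusted p = 2.0e-05). In neither gene did the groups overlap. Siglece rose from 0.943 ± 0.311 to 5.13 ± 1.33 CPM, whereas Siglech, a marker of resting microglia, fell from 11.97 ± 1.41 to 5.68 ± 0.498 CPM. Of 29 tested 15 were higher and 3 lower, and 1 was lower with the olfactory covariate. With a 1 CPM filter, which tests fewer genes, 8 were higher. Among integrins 7 of 23 tested were higher and 6 lower (median log2 change -0.05). In that list Itga5, the fibronectin receptor subunit, rose from 3.59 ± 1.25 to 9.34 ± 2.03 CPM and Itgb2, the leukocyte beta chain, from 5.34 ± 0.494 to 13.4 ± 2.71 CPM, while the laminin receptor chain Itgb4 fell from 17.2 ± 0.8289 to 7.57 ± 0.739 CPM and Itgb5 from 51.7 ± 1.16 to 28.3 ± 6.69 CPM. Of the 10 blood neutrophil markers 4 were tested, and 3 of these were higher and 0 lower with edgeR. Their part in these receptor levels was not tested.

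**Figure D3:**
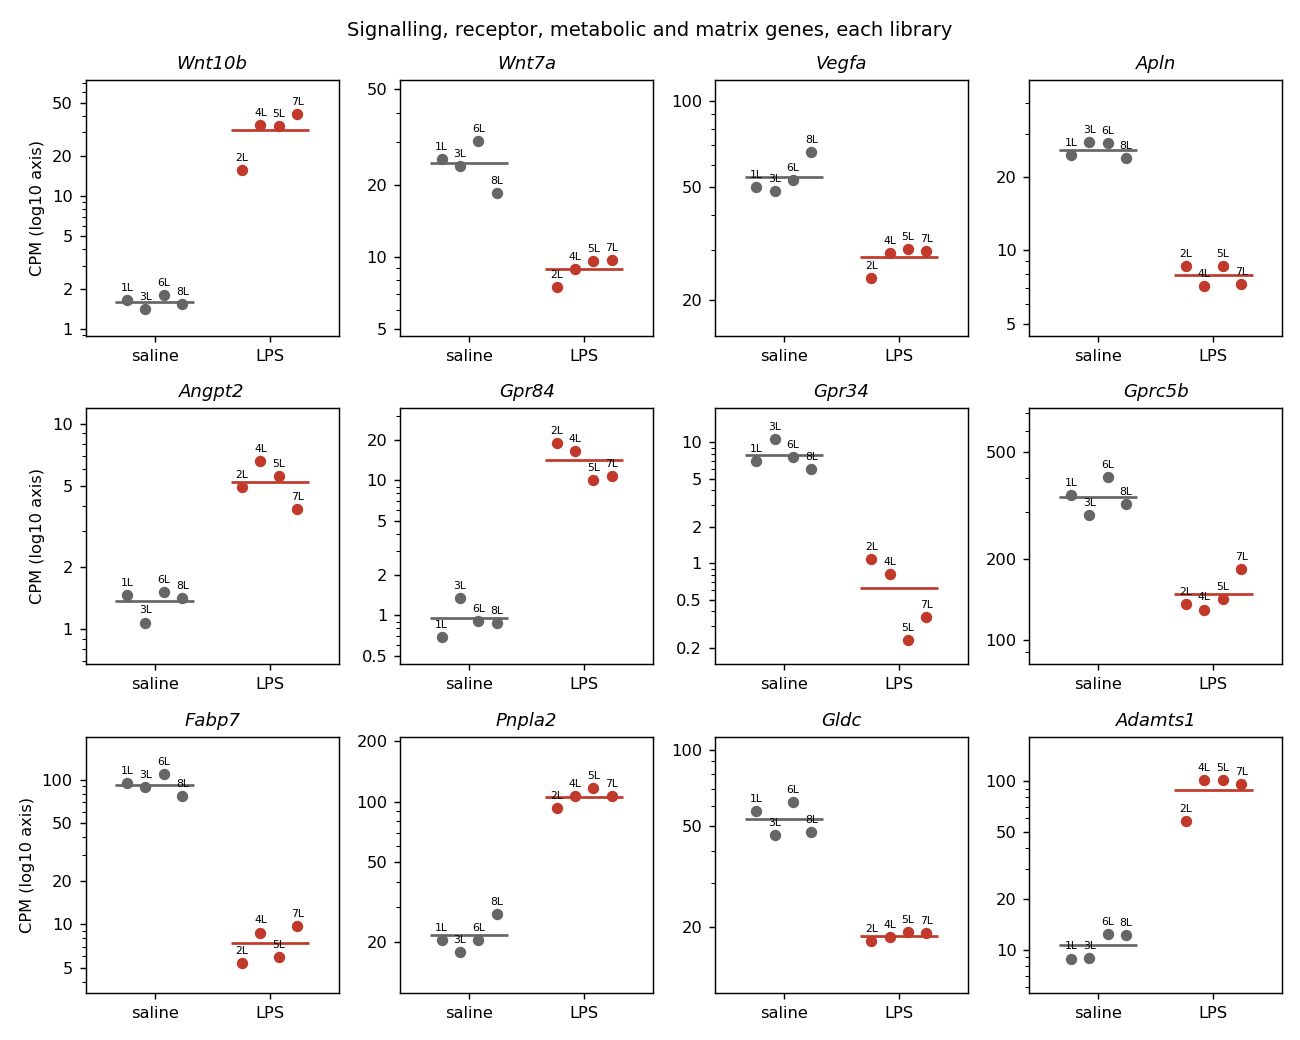
Level of 12 genes of signalling, receptors and metabolism in each library (CPM, log10 axis), saline in grey and LPS in red, with a line at each group mean. In every panel the 4 LPS points lie on 1 side of the 4 saline points, as in Wnt10b (1.43 to 1.80 CPM against 15.7 to 41.3 CPM) and Fabp7 (77.2 to 109.9 CPM against 5.35 to 9.67 CPM). The 12 genes were chosen with their values known, and 37.1% of all genes tested were separated in this way.

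Lipid handling changed at several steps. Fatty acids are released from droplets by lipases and burned in mitochondria, chiefly in astrocytes. Fabp7, the fatty acid binding protein of astrocytes and radial glia, measured 94.1, 88.3, 109.9 and 77.2 CPM with saline and 5.35, 8.75, 5.90 and 9.67 CPM with LPS (log2 change -3.64, SE 0.19, edgeR adjusted p = 3.5e-07), which is 12.4 times lower. Pnpla2, the lipase that opens triglyceride breakdown, stood at 20.6, 17.97, 20.6 and 27.7 CPM with saline and 92.96, 107, 117 and 107 CPM with LPS (log2 change 2.28, SE 0.13, edgeR adjusted p = 4.1e-07). Ucp2, a mitochondrial carrier, stood at 25.4, 26.2, 30.6 and 23.3 CPM with saline and 94.8, 94.96, 102 and 107 CPM with LPS (log2 change 1.92, SE 0.09, edgeR adjusted p = 2.8e-07). In all 3 genes the groups lay far apart. Pdk4, which shuts pyruvate out of oxidation, rose from 8.08 ± 1.81 to 21.4 ± 1.94 CPM. Among enzymes of oxidation and ketone use, Oxct1 fell from 324 ± 6.76 to 167 ± 14.2 CPM and Acadm, the medium-chain dehydrogenase, from 36.9 ± 2.48 to 20.8 ± 2.85 CPM. The summed level of 8 astrocyte markers was 4613 to 4937 CPM with saline and 4220 to 5293 CPM with LPS. Cpt1a, the entry step into the mitochondrion, was at 29.9 ± 2.05 CPM with saline and 31.1 ± 3.13 CPM with LPS and did not pass (edgeR adjusted p = 0.67). Of 43 genes of uptake and oxidation 6 were higher and 17 lower, with a median log2 change of -0.10.

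Among droplet and triglyceride genes the coat gene Plin3 fell from 20.8 ± 2.59 to 7.41 ± 2.49 CPM, the phosphatase gene Lpin3 rose from 0.585 ± 0.419 to 2.87 ± 0.865 CPM, and Elovl6, which lengthens fatty acids, fell from 67.3 ± 6.15 to 35.9 ± 0.913 CPM. Plin4 spread widely. It stood at 1.62, 2.45, 4.80 and 18.98 CPM with saline and 84.6, 30.8, 29.2 and 18.3 CPM with LPS, so saline library 8L lay above LPS library 7L, and its call (edgeR adjusted p = 0.012) was lost with the olfactory covariate (edgeR adjusted p = 0.42). Over this list 10 of 35 tested were higher and 9 lower (median log2 change 0.00). Spns2, the exporter of sphingosine-1-phosphate, rose with little spread, at 39.6, 38.3, 35.7 and 41.1 CPM with saline and 98.4, 111, 114 and 126 CPM with LPS (log2 change 1.54, SE 0.09, edgeR adjusted p = 4.1e-07). Mfsd2a, the carrier of docosahexaenoic lipid at the blood-brain barrier, rose from 18.8 ± 3.95 to 44.1 ± 5.99 CPM. In the sphingolipid list 10 of 42 tested were higher and 11 lower (median log2 change -0.01).

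Of the lipoprotein receptors, apolipoproteins and their modifiers 9 of 31 tested were higher and 6 lower (median log2 change 0.08), a called share of 48.4% against 41.2% of all genes. The higher count was 5 without 4L and 4 without 5L. Apod, a lipocalin made by glia, stood at 215, 216, 248 and 193 CPM with saline and 515, 632, 542 and 571 CPM with LPS (log2 change 1.37, SE 0.09, edgeR adjusted p = 1.4e-06). Pltp, which transfers phospholipid between lipoproteins, fell from 52.01 ± 15.1 to 14.7 ± 1.65 CPM, and Lcat, which esterifies cholesterol on them, from 31.9 ± 2.74 to 14.7 ± 2.24 CPM. Apoe fell from 2399.8 ± 259 to 1812 ± 100.04 CPM, and its call did not hold with the olfactory covariate (edgeR adjusted p = 0.065).

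Serine and glycine metabolism, which in brain is split between astrocytes and neurons and supplies D-serine and glycine for NMDA receptors, changed in both directions. Gldc, the glycine cleavage enzyme, measured 57.4, 46.3, 62.6 and 47.4 CPM with saline and 17.7, 18.3, 19.2 and 18.96 CPM with LPS (log2 change -1.53, SE 0.11, edgeR adjusted p = 2.5e-06). Phgdh, the first enzyme of serine synthesis, fell from 60.98 ± 6.76 to 32.7 ± 2.56 CPM and Slc6a9, the glial glycine transporter, from 72.4 ± 11.4 to 32.6 ± 6.25 CPM. Psat1, also of serine synthesis, did not pass (edgeR adjusted p = 0.54). Its level was 116 ± 6.88 CPM with saline and 112 ± 8.33 CPM with LPS. Slc7a10, the Asc-1 carrier that exchanges D-serine and glycine, fell from 28.9 ± 3.26 to 15.1 ± 1.55 CPM. Shmt1, the cytosolic enzyme converting serine to glycine, rose from 0.844 ± 0.221 to 4.45 ± 0.357 CPM. In the serine, glycine and folate list 8 of 26 tested were higher and 7 lower (median log2 change -0.04), with 4 lower without 5L.

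Glycogen, the carbohydrate reserve of astrocytes, is broken down by phosphorylase after phosphorylase kinase activates it. Phkg1 stood at 16.2, 16.9, 17.1 and 13.9 CPM with saline and 7.44, 5.49, 6.31 and 6.88 CPM with LPS (log2 change -1.30, SE 0.13, edgeR adjusted p = 2.7e-05), Phkb fell from 32.5 ± 0.814 to 17.98 ± 1.28 CPM and Pygb from 206 ± 11.7 to 133 ± 7.85 CPM. On the synthetic side Ugp2 fell from 74.4 ± 12.8 to 40.7 ± 1.43 CPM. Ppp1r3g, a glycogen-targeting phosphatase subunit, fell from 8.12 ± 1.28 to 3.17 ± 0.255 CPM. Of 23 genes 4 were higher and 10 lower, with a median log2 change of -0.23.

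In creatine synthesis both enzymes were lower, Gatm from 82.3 ± 12.96 to 34.7 ± 5.54 CPM and Gamt from 8.28 ± 1.07 to 3.76 ± 1.06 CPM. Nampt, the salvage enzyme of NAD, rose from 57.3 ± 4.18 to 82.6 ± 8.02 CPM and Kyat3, which makes kynurenic acid, from 4.29 ± 0.531 to 9.12 ± 0.708 CPM. Parp14, an interferon-induced ADP-ribosyltransferase, rose from 4.05 ± 0.455 to 17.2 ± 2.04 CPM. Gclc, of glutathione synthesis, rose from 56.9 ± 2.44 to 86.5 ± 2.95 CPM and Hmox1, haem oxygenase, from 4.86 ± 0.411 to 10.2 ± 2.09 CPM. Nqo1, a standard NRF2 target, was at 4.53 ± 0.499 CPM with saline and 3.96 ± 1.07 CPM with LPS and did not pass (edgeR adjusted p = 0.45). Of 42 glutathione, thioredoxin and NRF2-regulated genes 12 were higher and 12 lower.

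Ubiquitin tags proteins for removal or signalling, and several of its ligases are interferon-induced. Of 50 tested 26 were higher and 1 lower, which is 52% higher against 21.5% of all genes. The lower count was 0 to 2 when 1 library was left out. Rnf213, a giant ubiquitin ligase, measured 11.4, 10.6, 10.9 and 15.2 CPM with saline and 41.00, 42.6, 44.6 and 32.8 CPM with LPS (log2 change 1.74, SE 0.14, edgeR adjusted p = 6.1e-06). Usp54 rose from 70.9 ± 9.01 to 128 ± 4.36 CPM. The polyubiquitin gene Ubb did not pass, at 731 ± 28.7 CPM with saline and 754 ± 81.3 CPM with LPS.

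RNA-binding genes included both cold-inducible proteins, which in textbooks are induced by a fall in temperature and protect synapses. Cirbp stood at 65.3, 70.7, 48.8 and 58.4 CPM with saline and 125, 152, 158 and 174 CPM with LPS (log2 change 1.33, SE 0.12, edgeR adjusted p = 2.0e-05). Rbm3 stood at 69.6, 89.6, 46.1 and 67.7 CPM with saline and 161, 176, 166 and 185 CPM with LPS (log2 change 1.33, SE 0.15, edgeR adjusted p = 8.1e-05). In both genes the lowest LPS library was well above the highest saline library. The mRNA-degrading Zc3h12a (regnase-1) rose from 0.705 ± 0.0825 to 6.34 ± 1.89 CPM and Zfp36 (tristetraprolin), which destabilises cytokine mRNA, from 3.86 ± 0.901 to 18.9 ± 6.37 CPM. Hnrnpu, a nuclear scaffold and splicing protein, fell from 404 ± 18.3 to 273 ± 10.6 CPM. Over 63 genes 22 were higher and 15 lower.

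Class II histone deacetylases shuttle between cytoplasm and nucleus and repress MEF2 targets. Hdac5 measured 251, 216, 262 and 222 CPM with saline and 137, 91.2, 96.7 and 109 CPM with LPS (log2 change -1.13, SE 0.12, edgeR adjusted p = 4.9e-05). Hdac9 measured 70.7, 63.2, 81.1 and 74.9 CPM with saline and 31.3, 30.6, 26.8 and 37.8 CPM with LPS (log2 change -1.20, SE 0.11, edgeR adjusted p = 2.0e-05). In both the groups were separate. The related Hdac4 stood at 71.2 ± 11.1 CPM with saline and 64.3 ± 9.42 CPM with LPS and did not pass (edgeR adjusted p = 0.37). Mef2a rose from 192 ± 6.84 to 255 ± 17.8 CPM and Mef2d from 294 ± 27.2 to 389 ± 23.9 CPM. Smarca4, the BRG1 ATPase, fell from 231 ± 22.6 to 140.1 ± 17.4 CPM, Kdm7a from 55.7 ± 7.94 to 27.3 ± 6.26 CPM and Setd7 from 194 ± 22.6 to 97.7 ± 24.9 CPM. In each of Hdac5, Kdm7a and Setd7 library 2L was the highest LPS library. Of 74 modifiers 22 were higher and 10 lower, and 13 were higher without 4L. With all libraries 29.7% were higher against 21.5% of all genes, and 13.5% lower against 19.7%. The list thus leaned towards higher levels, while Hdac5, Hdac9, Smarca4, Kdm7a and Setd7 are among its lower genes. Its 22 higher genes are not named here, and Mef2a and Mef2d were taken from the list of cortical neuron factors.

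In the list of p53-regulated and DNA damage genes 13 of 40 tested were higher and 1 lower (median log2 change 0.13). Cdkn1a, the p21 inhibitor of cell division, stood at 46.2, 36.6, 70.6 and 42.5 CPM with saline and 106, 159, 184 and 177 CPM with LPS (log2 change 1.67, SE 0.21, edgeR adjusted p = 1.3e-04). Pmaip1 rose from 2.08 ± 0.329 to 9.58 ± 1.26 CPM, Sesn1 from 57.1 ± 5.48 to 94.6 ± 2.59 CPM and Ddit4, a glucocorticoid- and hypoxia-responsive inhibitor of mTOR, from 39.3 ± 7.93 to 91.1 ± 12.2 CPM. The lower count was 5 with the olfactory covariate or without 2L. Genes known from hypoxia moved both ways. P4ha1, a prolyl hydroxylase of collagen, fell from 56.3 ± 8.63 to 21.03 ± 3.55 CPM and Egln3, an oxygen sensor, from 24.00 ± 3.17 to 10.7 ± 1.64 CPM, along with Vegfa, while Lox rose from 0.726 ± 0.409 to 7.39 ± 2.57 CPM. In that list 11 of 29 tested were higher and 6 lower (median log2 change 0.16).

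**Figure D4:**
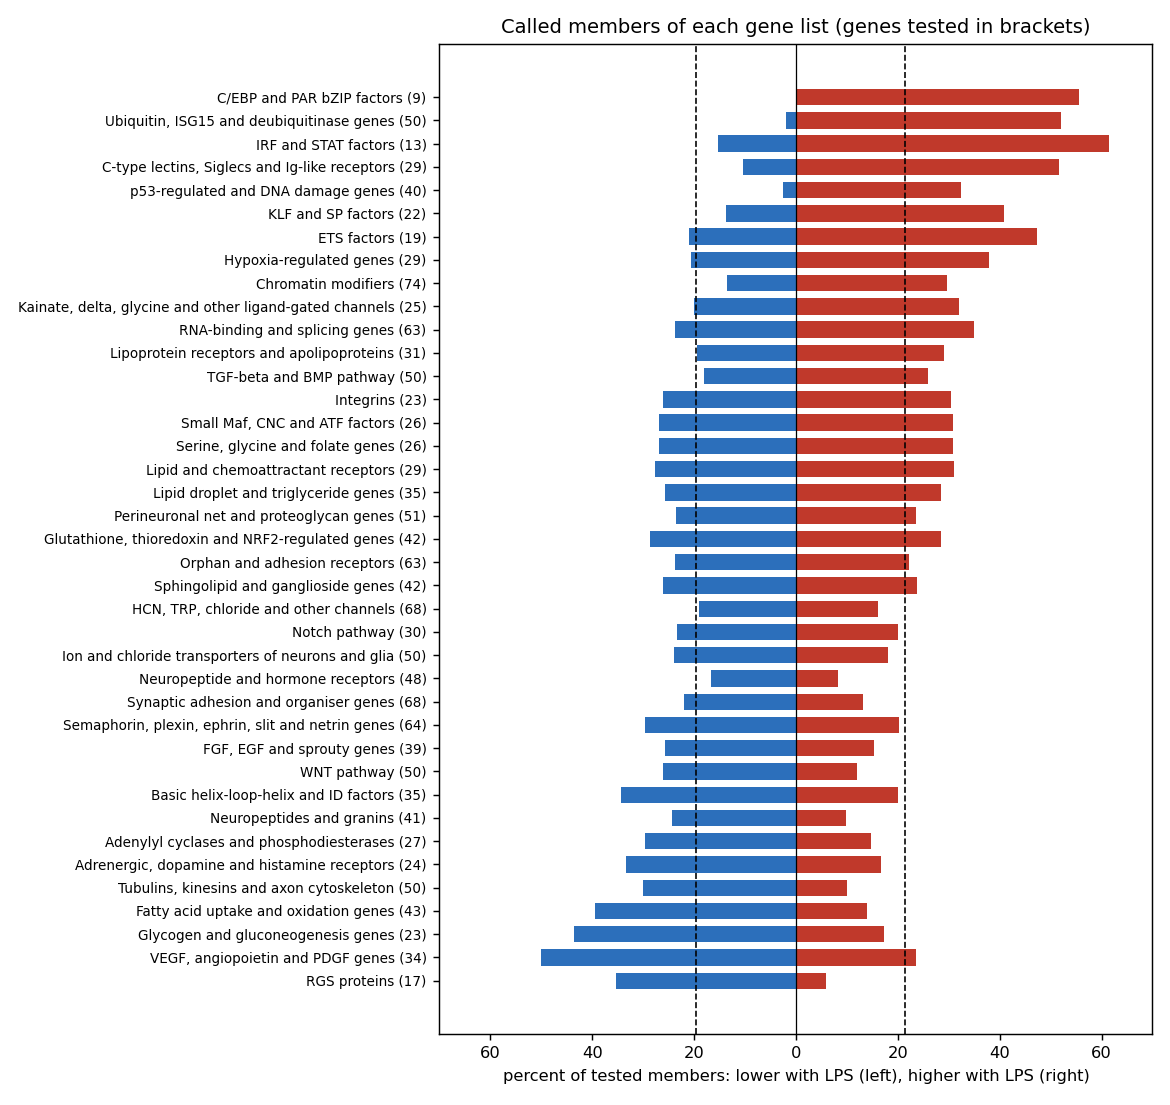
Share of tested members higher (red, right) and lower (blue, left) with LPS in 39 gene lists, in percent on a linear axis, with dashed lines at the shares of all 17760 genes, 21.5% higher and 19.7% lower. The IRF and STAT list reaches 61.5% to the right, the C/EBP and PAR list 55.6% and the ubiquitin list 52%. The VEGF and angiopoietin list reaches 50% to the left.

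Neuropeptides mark classes of cortical interneurons. Sst stood at 167 ± 13.6 CPM with saline and 186 ± 31.5 CPM with LPS, Npy at 74.4 ± 5.82 CPM with saline and 67.2 ± 6.10 CPM with LPS and Cck at 309.9 ± 50.6 CPM with saline and 273 ± 43.1 CPM with LPS, and none of these passed (edgeR adjusted p = 0.29, 0.19 and 0.28). Adcyap1, the peptide PACAP, was lower without overlap, at 27.98, 26.97, 25.9 and 27.1 CPM with saline and 11.3, 11.3, 12.7 and 15.3 CPM with LPS (log2 change -1.09, SE 0.11, edgeR adjusted p = 3.6e-05). Pcsk2, a prohormone convertase, rose from 398 ± 50.7 to 579.5 ± 13.3 CPM. Of 41 peptides, granins and processing genes 4 were higher and 10 lower. That lower count was 2 with the olfactory covariate and 6 without 4L. Crh was among them, at 7.69 ± 3.15 CPM with saline and 4.24 ± 0.585 CPM with LPS with an edgeR adjusted p of 0.014, of 0.25 with the covariate and of 0.17 in the 4 libraries whose labels agree.

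Among peptide receptors 25% of the 48 tested were called, against 41.2% of all genes. Crhr1, the receptor for corticotropin-releasing hormone, measured 33.9, 27.2, 35.6 and 30.6 CPM with saline and 8.66, 9.74, 11.4 and 18.1 CPM with LPS (log2 change -1.41, SE 0.20, edgeR adjusted p = 2.9e-04). Library 7L was the highest with LPS and still below all saline libraries. The gastrin and cholecystokinin receptor Cckbr fell from 69.4 ± 7.84 to 35.5 ± 6.27 CPM, and the somatostatin receptor Sstr3 from 45.5 ± 2.90 to 27.4 ± 3.40 CPM, as had Sstr2. Mc4r, the melanocortin receptor involved in appetite, stood at 1.51, 1.35, 1.63 and 2.66 CPM with saline and 5.73, 5.98, 5.22 and 5.30 CPM with LPS (log2 change 1.63, SE 0.21, edgeR adjusted p = 1.7e-04). Npr3, the clearance receptor for natriuretic peptides, rose from 12.3 ± 1.08 to 24.3 ± 3.90 CPM. Of the list 4 were higher and 8 lower, and 2 were higher without 1L, 4L or 5L.

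Histamine from the hypothalamus reaches cortex through several receptors. Hrh1, an excitatory receptor, stood at 14.8, 13.7, 11.2 and 12.9 CPM with saline and 7.37, 4.55, 3.00 and 3.05 CPM with LPS (log2 change -1.55, SE 0.25, edgeR adjusted p = 6.7e-04). Hrh3, the presynaptic inhibitory receptor, rose from 112 ± 13.6 to 183 ± 34.4 CPM, and its edgeR adjusted p with the olfactory covariate was 0.081. Adra2a, the alpha-2A adrenergic receptor, rose from 27.9 ± 3.60 to 37.7 ± 2.04 CPM. Of the adrenergic, dopamine and histamine receptors 4 of 24 tested were higher and 8 lower (median log2 change -0.09), with 1 higher and 5 lower under the olfactory covariate and 2 higher without 5L.

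Among HCN, TRP, chloride and other channels 11 of 68 tested were higher and 13 lower (median log2 change 0.05). Hcn3 fell from 25.2 ± 3.81 to 11.4 ± 2.56 CPM, while Hcn2 was at 232 ± 19.99 CPM with saline and 228 ± 13.6 CPM with LPS and did not pass (edgeR adjusted p = 0.81). These subunits carry the hyperpolarisation-activated current that sets dendritic integration. Of the store-operated calcium entry genes, Stim1 rose from 93.2 ± 3.93 to 133 ± 8.87 CPM and Orai2 from 68.1 ± 1.35 to 108 ± 9.01 CPM. Hvcn1, the proton channel of myeloid cells, rose from 4.39 ± 0.173 to 13.6 ± 1.22 CPM. Scn10a, the sodium channel of sensory neurons, was at 0.231, 0.700, 0.380 and 0.855 CPM with saline and 8.25, 4.29, 3.75 and 3.66 CPM with LPS (log2 change 3.20, SE 0.39, edgeR adjusted p = 1.2e-04). Gabrr2, a rho subunit of GABA receptors, was at 0.154, 0.242, 0.507 and 0.950 CPM with saline and 4.08, 3.87, 3.62 and 2.41 CPM with LPS (log2 change 2.89, SE 0.42, edgeR adjusted p = 3.5e-04). Both were low with saline, and the groups did not overlap.

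The neuronal pentraxins, secreted proteins that gather AMPA receptors at synapses, moved in opposite directions. Nptx1 measured 391.6, 346, 347 and 412 CPM with saline and 638, 623, 559.6 and 652 CPM with LPS (log2 change 0.72, SE 0.08, edgeR adjusted p = 5.3e-05). Nptx2, whose expression follows neuronal activity, measured 68.7, 64.6, 108 and 54.2 CPM with saline and 20.1, 28.9, 33.4 and 34.8 CPM with LPS (log2 change -1.34, SE 0.21, edgeR adjusted p = 5.6e-04). Saline library 6L was the highest for Nptx2, as for Fos, and the other saline libraries also lay above all LPS libraries. Cntnap4, an adhesion protein of interneuron synapses, fell from 44.9 ± 5.72 to 22.6 ± 3.09 CPM and Cntnap3 from 16.05 ± 0.969 to 6.99 ± 1.89 CPM. Of 68 adhesion and organiser genes 9 were higher and 15 lower.

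Among ion transporters of neurons and glia 9 of 50 tested were higher and 12 lower (median log2 change -0.05). Slc24a2, a sodium and calcium exchanger, rose from 359 ± 49.2 to 649 ± 76.2 CPM and the plasma membrane calcium pump gene Atp2b1 from 694 ± 24.7 to 984 ± 51.6 CPM. Its relative Atp2b2 stood at 852 ± 85.03 CPM with saline and 942 ± 53.6 CPM with LPS and did not pass (edgeR adjusted p = 0.17). Slc12a5, the chloride exporter KCC2, did not pass, at 601 ± 75.2 CPM with saline and 581 ± 24.02 CPM with LPS. Car2, a carbonic anhydrase of oligodendrocytes and other glia, fell from 156 ± 17.2 to 71.2 ± 4.00 CPM. In the list of kainate, glycine and other ligand-gated channels 8 of 25 tested were higher and 5 lower (median log2 change 0.05). That is 32% higher against 21.5% of all genes, and most of these 8 are not named here. With the olfactory covariate 4 were higher. Kctd12, an auxiliary subunit of GABA-B receptors, fell from 117 ± 3.37 to 71.03 ± 9.23 CPM, and the kainate subunit gene Grik1 from 18.7 ± 0.726 to 12.9 ± 1.17 CPM. Kctd8, of the same auxiliary family, rose from 6.79 ± 0.907 to 10.6 ± 2.62 CPM and lost its call with the olfactory covariate (edgeR adjusted p = 0.45). Slc38a3, the glial glutamine exporter that feeds transmitter synthesis, belongs to another list, of solute carriers. Its levels were 115, 95.5, 113 and 93.7 CPM with saline and 34.8, 39.5, 44.5 and 50.5 CPM with LPS (log2 change -1.30, SE 0.12, edgeR adjusted p = 1.4e-05).

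Extracellular matrix around neurons is cut by ADAMTS proteases. Adamts1 measured 8.85, 8.89, 12.4 and 12.2 CPM with saline and 57.8, 101, 102 and 95.6 CPM with LPS (log2 change 3.07, SE 0.19, edgeR adjusted p = 1.1e-06). Adamts9 measured 2.98, 2.80, 3.95 and 3.85 CPM with saline and 22.6, 31.5, 29.9 and 29.9 CPM with LPS (log2 change 3.06, SE 0.15, edgeR adjusted p = 2.8e-07). Library 2L was the lowest of the LPS group in both, far above the saline libraries. The syndecan gene Sdc4 rose from 69.8 ± 6.88 to 129.5 ± 12.01 CPM. In this list 12 of 51 tested were higher and 12 lower (median log2 change -0.09), and 7 were lower with the olfactory covariate.

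Tubulins and motor proteins carry axonal transport. Dynll1, a dynein light chain, fell from 219 ± 16.1 to 110.2 ± 9.27 CPM and Tubb2b, a tubulin of immature neurons and glia, from 133 ± 15.9 to 69.1 ± 15.5 CPM. Of 50 tubulins, kinesins and axonal genes 5 were higher and 15 lower. The lower count was 7 with the olfactory covariate and the higher count 3 without 3L, 8L, 4L, 5L or 7L.

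Levels of some GABAergic and catecholamine genes followed the summed level of the olfactory list across libraries. Less bulb tissue in a library and a lowering of these transcripts with LPS cannot be told apart. Th (tyrosine hydroxylase), Cdhr1 and Scgn are themselves members of the olfactory list that the covariate summarises, so their tie to it is built in. Th stood at 78.9, 45.6, 80.2 and 70.8 CPM with saline and 6.98, 21.9, 18.99 and 39.8 CPM with LPS (log2 change -1.65, SE 0.38, edgeR adjusted p = 0.0051), and with the olfactory covariate its edgeR adjusted p was 0.2. Cdhr1, a protocadherin of mitral cells that marks the bulb, stood at 215, 155, 257 and 224 CPM with saline and 35.7, 117, 109.7 and 185 CPM with LPS. Its edgeR adjusted p was 0.053, 0.017 without 2L and 0.011 without 7L. Gad1 was likewise lowest in 2L, at 788, 678, 1005 and 839 CPM with saline and 345, 485, 570.5 and 749.7 CPM with LPS. Its edgeR adjusted p was 0.023, 0.72 with the covariate, 0.065 without 6L, 0.064 without 4L and 0.45 in the 4 libraries whose labels agree. Gad2 stood at 282 ± 65.3 CPM with saline and 282 ± 65.3 CPM with LPS and did not pass (edgeR adjusted p = 0.998). Scgn, a calcium sensor of bulb interneurons, fell from 16.6 ± 3.43 to 3.86 ± 2.14 CPM and kept its call with the covariate (edgeR adjusted p = 0.0045). The long noncoding RNA Dlx6os1, from a locus of forebrain interneurons, was also lower, at 40.3, 39.3, 59.3 and 42.01 CPM with saline and 11.1, 8.35, 8.69 and 8.42 CPM with LPS (log2 change -2.31, SE 0.15, edgeR adjusted p = 1.6e-06). The part of the olfactory transcripts in the Dlx6os1 level was not tested beyond the covariate, with which its edgeR adjusted p was 4.4e-05.

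**Figure D5:**
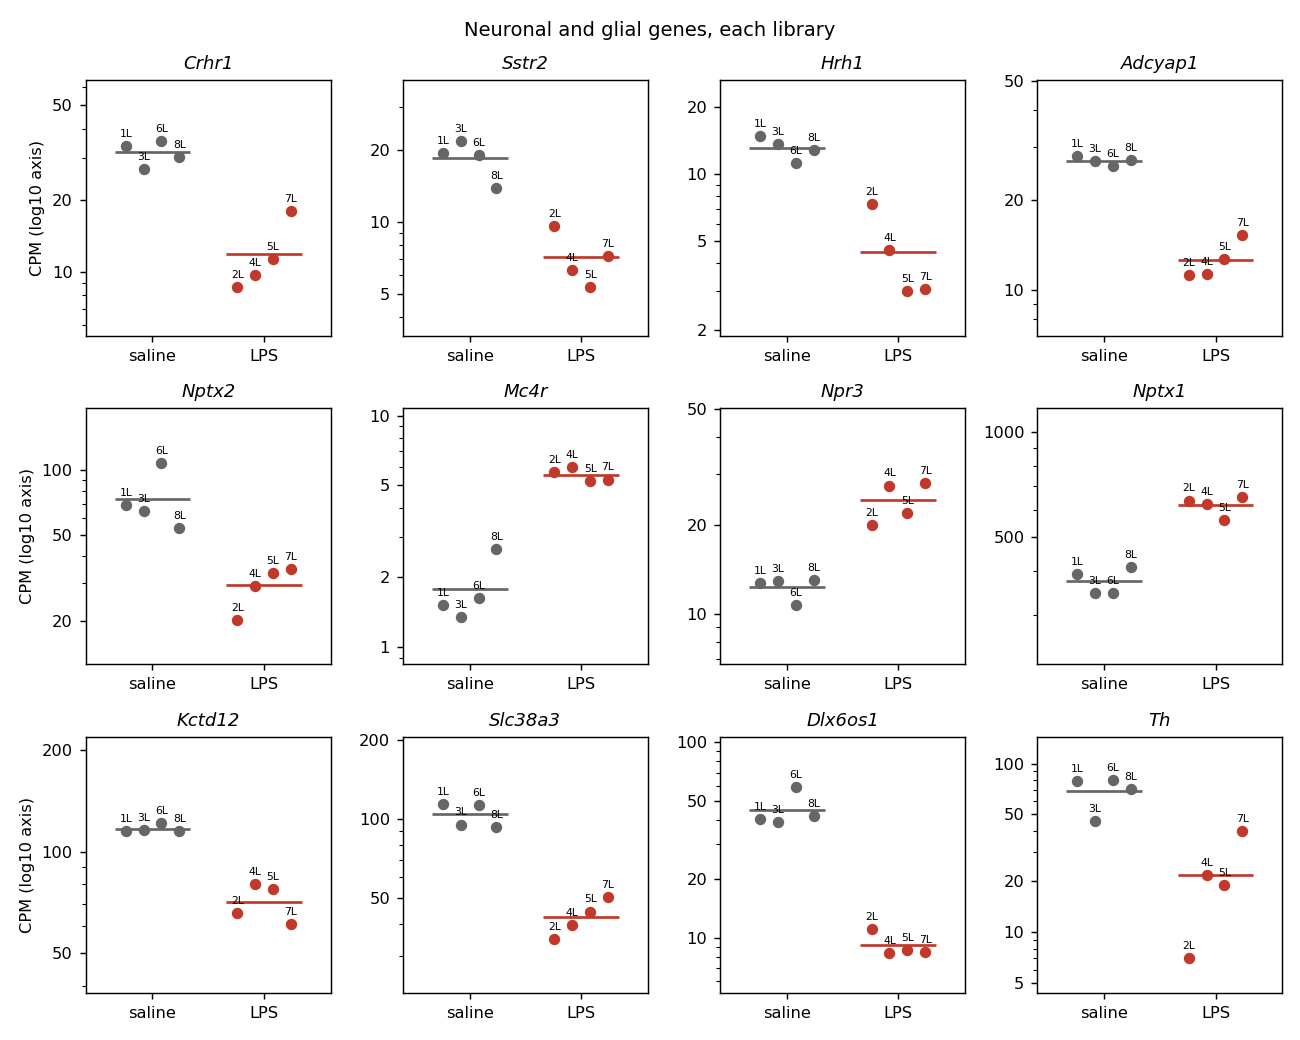
Level of 12 neuronal and glial genes in each library (CPM, log10 axis), saline in grey and LPS in red, with a line at each group mean. Crhr1, Sstr2, Hrh1, Adcyap1 and Nptx2 lie lower with LPS, and Mc4r, Npr3 and Nptx1 higher. With LPS Th, itself a member of the olfactory list, runs from 6.98 CPM in 2L to 39.8 CPM in 7L.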

How the data were processed

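Per the labels' protocols, TRIzol RNA went into poly(A)-selected libraries (Universal Plus mRNA-Seq, NuQuant). The authors deposited raw read counts per gene symbol for the 8 prefrontal cortex libraries. Per the submitters' processing notes, fastp, STAR, featureCounts, DESeq2 and build mm10 were used. The sources used here do not give the annotation or the strand setting, so overlapping and antisense genes cannot be separated and paralogues may share reads.

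Of 55487 rows, 17760 passed edgeR's filterByExpr. Counts were fitted with edgeR 4.0.16 in R 4.3.3 (TMM factors, quasi-likelihood F-test, LPS against saline, no covariate), with Benjamini-Hochberg adjustment over all genes tested and a threshold of 0.05. The SE is the absolute log2 change divided by the square root of F. DESeq2 1.42.0 and limma 3.58.1 were alternatives. The fit was also run on simulated counts in which only a small share of genes was changed. Since 41.2% of genes were called here, that run cannot check the scaling or the false calls in these data. The lowest chi-square per degree of freedom between libraries of 1 group was 10.97, so all were counted as separate libraries. The labels give batch 1 for all 8 libraries, without saying what the batch is.

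Genes and the 69 lists were chosen with earlier results of these data known. Named genes are those with the largest or most significant changes among all genes, and in each list up to 5 with the smallest p, up to 3 with the largest change and up to 3 with the highest level that did not pass. By this rule 165 of the 193 genes given with fitted values were named. The other 28 were chosen after their values were seen, and they are Acadm, Axin2, Cck, Cdhr1, Cpt1a, Crh, Cux2, Fzd4, Gabrr2, Hcn3, Hdac4, Hmox1, Irf3, Irx3, Kdr, Mafg, Nfe2l2, Notch1, Npy, Nqo1, Ptprb, Scgn, Scn10a, Siglech, Slc12a5, Sst, Tgfbr3 and Th. Fos was named for library 6L alone. Flt1, Hey1 and Psat1 also meet the rule, did not pass, and are not among the 193. Promoters from RefSeq matched 12719 of 17760 genes tested (71.6%, 1 promoter a gene).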

Additional observations from a re-analysis of the deposited data

Results flagged for a closer look

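In 386 groups of 4 libraries (193 named genes), 25 (6.48%) held a library far from the other 3 by Dixon's criterion at the 95% level, a level at which chance flags about 1 group in 20. LPS library 2L gave 12 of these, and LPS libraries 4L, 5L and 7L none. It was the lowest LPS library for Adamts1 (57.8 CPM), Cebpd (20.7 CPM), Stat3 (94.8 CPM) and Vegfa (24.0 CPM). It was the highest for Dlx6os1 (11.1 CPM), Heyl (8.11 CPM), Irf3 (12.3 CPM), Kctd8 (14.5 CPM), Kdm7a (36.6 CPM), Plin3 (11.1 CPM), Scn10a (8.25 CPM) and Setd7 (135.0 CPM). For Vegfa, Kctd8 and Scn10a 2L lay further from the saline libraries than the rest of its group, and for the other 9 genes it was the LPS library nearest to them.

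Saline library 8L was highest for Cebpd (9.91 CPM), Gpr65 (0.214 CPM) and Lpin3 (1.21 CPM) and lowest for Sstr3 (41.1 CPM) and Tek (7.77 CPM). Saline library 6L was highest for Crh (12.3 CPM), Dlx6os1 (59.3 CPM), Hvcn1 (4.65 CPM) and Kctd12 (121.9 CPM) and lowest for Npr3 (10.7 CPM). Saline library 1L was highest for Hcn2 (262 CPM) and lowest for Mef2a (182 CPM), and 3L was lowest for Adcy8 (44.7 CPM). Leaving out the library in question changed the call of none of these genes in edgeR.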

How the results depend on the processing

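Grouped by title and treatment field in place of the column names, 0 genes were higher and 0 lower with edgeR, and 201 had an unadjusted p under 0.05. Every other alternative stayed within 1.5 times the reported counts of 3811 higher and 3502 lower. Leaving out 1 library in turn gave 2878 to 4327 higher and 2825 to 4154 lower, with the highest counts without 2L. DESeq2 gave 4116 and 3756, limma-voom 3784 and 3581, and a 1 CPM filter 3418 and 3308. The 4 libraries whose labels agree gave 2826 and 2864. Of 78 list counts, 15 moved by over 1.5 times in those 4 libraries, 16 with the olfactory covariate and 4 with the replicate block. The olfactory covariate, chosen after seeing the data, gave 3419 and 3034. Of 7313 calls, 3539 (48.4%) were kept in all alternatives other than the title grouping.

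Same-numbered titles do not pair the libraries: the correlations of their deviations were -0.23, -0.21, -0.17 and -0.04. A replicate block on that number gave 3144 higher and 2920 lower, and among the named genes only Gad1 lost its call (edgeR adjusted p = 0.06). Of 193 named genes, 183 were on the same side of the threshold with the olfactory covariate. With it the log2 changes of Cdhr1 (0.43) and Gad1 (0.070) were of opposite sign to those reported. Without the covariate Cdhr1, a member of the olfactory list, passed under upper-quartile factors, limma-voom, no filter and the striatal covariate.

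Motif shares were not compared between higher and lower genes, since only 71.6% of genes tested had a promoter, under the 80% needed. With the 250 bases before the start alone the interferon element stood in 6.12% of promoters and the STAT motif in 5.79%. The glucocorticoid motif stood in 3.82% and the cAMP element in 2.45%. The median half-width of the 95% interval of a log2 change was 0.29, so smaller differences were often not detectable with 4 libraries a group.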
